A study of Mus musculus with 34 samples.

Results

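Induced cardiomyocytes 4 weeks after direct reprogramming (iCM) were compared with freshly isolated neonatal cardiac fibroblasts (neoCF). The 4 arrays were chosen by sample title, 2 of iCM and 2 of neoCF, out of 34 in the series. All cells came from CD1 mice of the aMHC-GFP genotype, in which the promoter of the alpha-myosin heavy chain gene, active in heart muscle cells, drives green fluorescent protein. iCM were made from cardiac fibroblasts of pups at postnatal day 1.5 with a retrovirus that carries Mef2c, Gata4 and Tbx5 in 1 polycistronic transgene. The labels give for contractile iCM a culture in Stem Pro 34 medium with GlutaMAX, ascorbic acid, VEGF, bFGF and FGF10. neoCF were freshly isolated from pups at postnatal day 1.5, and their labels name no virus. Fibroblasts at day 0 of the reprogramming course (CF_D0, 2 arrays) and fibroblasts 14 days after a virus with LacZ (LacZ_D14, 2 arrays) served as further fibroblast samples. Their labels do not state the medium of the LacZ cultures. The labels give no cell sort and no purification of iCM by the reporter. They also leave unstated if the 2 arrays of a group hold RNA of separate cultures. The p-values therefore measure only the spread between arrays of the same group, pooled over the groups of the series, which may be technical.

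In direct reprogramming, a few transcription factors of the developing heart turn fibroblasts toward heart muscle without a pluripotent step. MEF2C, GATA4 and TBX5 bind regulatory regions of sarcomere and calcium handling genes, and GATA4 and TBX5 are also made by cardiac fibroblasts. Heart muscle cells depend on ordered sarcomeres, on calcium release from the sarcoplasmic reticulum and on fatty acid oxidation, whereas cardiac fibroblasts make collagen matrix and can divide.

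Levels are given as log2 of the processed intensity minus the 75th percentile of the same array, so a level of 0 is the signal at that percentile. Differences are on the log2 scale, iCM minus the other group and ± SE of the limma fit with 2 arrays a group, so a negative one means lower in iCM. A gene was called where the limma adjusted p was under 0.05 and the groups differed at least 2-fold. Spots well above background numbered 40265 and 36458 of 59305 on the iCM arrays, against 42998 and 44137 on the neoCF arrays. The 2 arrays of a group correlated across genes at r = 0.994 for iCM and 0.993 for neoCF. The SE and p-values rest on a spread pooled over all 17 groups of the series. Among these are iPSC-derived cardiomyocytes at day 29 (iPSC2-CM_D29), whose 2 arrays correlated at r = 0.895. A gene can therefore go uncalled although its iCM and neoCF arrays lay close together within each group. Of 19408 genes tested, 3270 were called higher (16.8%) and 3907 lower (20.1%) in iCM than in neoCF. With the percentile taken over probes detected on all arrays, the split was 2282 higher and 5013 lower, and the median of all genes was at -0.28. Both iCM arrays lay on 1 slide, and the neoCF, CF_D0 and LacZ_D14 arrays together on another, scanned on a different day. Slide, scan day and group therefore cannot be told apart in any of the 3 comparisons, which share the iCM arrays.

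The labels were set against cell type markers first. All 6 cardiomyocyte markers were well above background on all 4 arrays, so heart muscle transcripts were measured in neoCF too. Myh6, the alpha-myosin heavy chain gene whose promoter drives the reporter, had levels of 7.21 and 6.90 in iCM and 5.78 and 5.30 in neoCF. The groups did not overlap, and the difference was 1.51 ± 0.28 (SE, limma, adjusted p = 0.00011). The 6 marker signals summed to 353 and 288 times the 75th percentile signal in iCM, against 82.7 and 58.9 in neoCF, 9.54 and 8.91 in CF_D0 and 12.5 and 13.9 in LacZ_D14. Fewer heart muscle cells and less RNA per cell cannot be told apart in such bulk samples, here and in every result below. The 6 fibroblast markers summed to 312 and 247 in iCM and 507 and 510 in neoCF. None of them was called higher in iCM and 2 were called lower, Col1a1, a chain of type I collagen, and Postn, periostin of the activated matrix. Pdgfra, a growth factor receptor of fibroblasts, had levels of 3.46 and 3.48 in iCM and 3.47 and 3.65 in neoCF, which interleave. Tcf21, a transcription factor of cardiac fibroblasts, had 3.76 and 4.11 in iCM and 2.73 and 2.82 in neoCF without a call (limma, adjusted p = 0.23), but was called with only these groups in the fit (adjusted p = 0.0048).

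**Figure D1:**
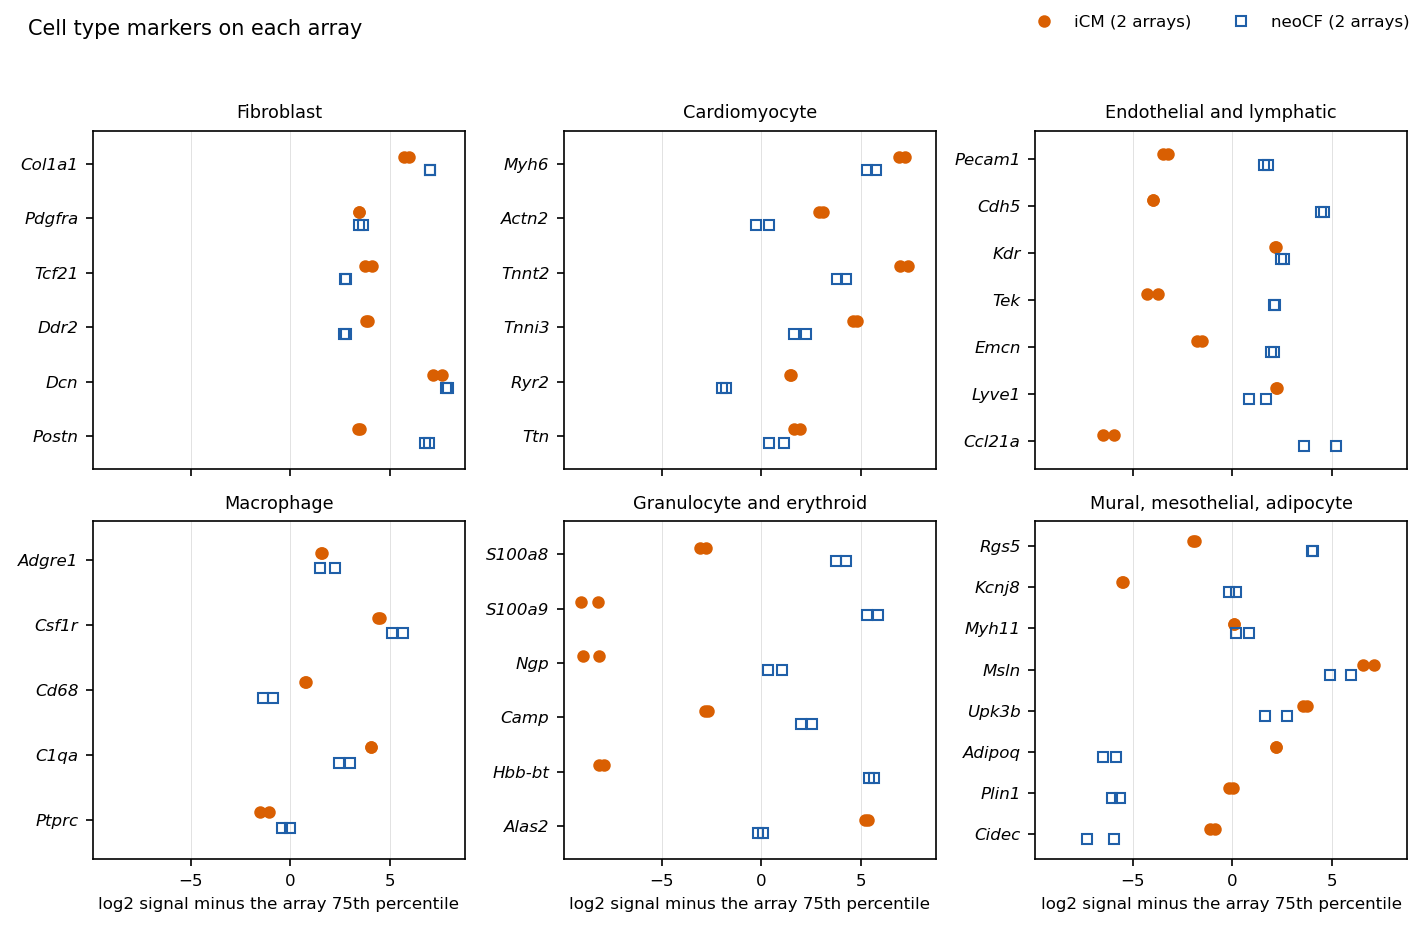
Marker genes by cell type, with the log2 signal minus the array's 75th percentile on the x axis, filled circles for the 2 iCM arrays and open squares for the 2 neoCF arrays. Pdgfra, Adgre1 and Kdr lie close together, whereas Cdh5, S100a9 and Hbb-bt are low in iCM and Adipoq is high in iCM.

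The 3 delivered factors were not higher in iCM. Tbx5 had levels of -0.14 and 0.05 in iCM and 0.27 and -0.85 in neoCF, and the groups overlapped. Gata4 had 1.77 and 2.41 in iCM and 2.92 and 2.87 in neoCF, a difference of -0.81 ± 0.17 that was under 2-fold. Mef2c had -1.06 and -1.45 in iCM and -0.34 and 0.14 in neoCF and was called lower by -1.16 ± 0.46 (SE, limma, adjusted p = 0.039). The Mef2c call was lost when any 1 of the 4 arrays was left out (differences from -1.39 to -0.92), and Gata4 passed 2-fold under the other scalings, at -1.17 with quantile normalization, and at -1.13 without iCM replicate 2. Against CF_D0, both Mef2c (2.39 ± 0.46) and Tbx5 (2.43 ± 0.32) were called higher in iCM. Whether these probes read the transgene is not stated in the files used here. Among 20 other cardiac transcription factors, 2 were called higher and 6 lower in iCM than in neoCF, beside 16.8% and 20.1% of all genes. Hand2, which acts in both ventricles and the outflow tract, was higher by 2.02 ± 0.62. Without neoCF replicate 2 none of the 20 was called higher, and Hand2 was at 1.82 (limma, adjusted p = 0.061). Nkx2-5, a core cardiac factor, had -3.76 and -3.59 in iCM and -0.98 and -1.59 in neoCF. Its groups did not overlap, and it was lower by -2.39 ± 0.57 in iCM. Hey2, a ventricular repressor, Tbx2 and Tbx3, which mark non-chamber and conduction muscle, Irx4, a ventricular factor, and Prox1, which also marks lymphatic endothelium, were also called lower. Prox1 was at -1.08 with normexp and not called (limma, adjusted p = 0.072). Irx4 lost its call without iCM replicate 2 (-0.96) or neoCF replicate 1 (-0.90) and under quantile normalization (-0.71). Against CF_D0, 6 of these 20 factors were called higher and 2 lower, where 18.9% and 21.7% of all genes were. Against LacZ_D14, 5 of the 20 were called higher and 1 lower, where 10.1% and 18.2% of all genes were.

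The Z-disc is the plate that anchors the thin filaments. Its genes, listed together with muscle stress proteins, made the most one-sided of the sarcomere and calcium cycling lists. Of 21 tested, 15 were called higher and none lower in iCM, with a median difference of 2.71 against 0 over all genes. Xirp2, which holds actin bundles at the cell junctions, had 0.42 and 0.38 in iCM. In neoCF its signal was not well above background on either array, which put it at least 152-fold higher in iCM. Ankrd1, a stress-responsive titin partner, had 6.54 and 6.36 in iCM and 1.49 and 1.36 in neoCF, a difference of 5.02 ± 0.34 (SE, limma, adjusted p = 4.3e-10). Its groups were far apart here, yet Ankrd1 was not called against CF_D0 (-0.19 ± 0.34) or LacZ_D14 (0.77 ± 0.34), where quantile normalization gave 1.65 and a call. Tcap, the titin cap, had 4.64 and 4.58 in iCM and 0.77 and 0.21 in neoCF, and was higher by 4.12 ± 0.32. It also differed from CF_D0 by 7.32 ± 0.32 and from LacZ_D14 by 9.02 ± 0.32. Des, the muscle intermediate filament, and Ldb3, a Z-disc adaptor, rose likewise by 4.35 ± 0.51 and 3.92 ± 0.50.

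Thin filament genes were mostly higher, 7 of 11, with 1 lower. Lmod2, which lengthens thin filaments, differed by 4.25 ± 0.56, and Tnni3, the mature cardiac troponin I, by 2.80 ± 0.53. Tnni1, the slow skeletal troponin I of the fetal heart, had -1.35 and -1.33 in iCM and 1.83 and 1.10 in neoCF. It was lower by -2.80 ± 0.63 in iCM than in neoCF, but at least 9.96-fold higher than in LacZ_D14, where it was not well above background. Actc1, cardiac actin, had 5.76 and 5.87 in iCM and 6.28 and 5.74 in neoCF, which interleave, and was not called (-0.19 ± 0.25, limma, adjusted p = 0.52). Among the 14 thick filament and M-band genes, 7 were called higher and 3 lower, beside 16.8% and 20.1% of all genes. Smpx, a small stretch-responsive muscle protein, was higher by 4.27 ± 0.57 and Myom1, an M-band crosslinker, by 2.56 ± 0.50. The 3 that fell were Myl2 and Myl3, the ventricular light chains, and Myh7, the beta-myosin heavy chain. Myl2 had -4.70 and -2.0 in iCM and 5.08 and 4.74 in neoCF, with its 2 iCM arrays far apart but both below neoCF. All 5 genes of the ventricular list were called lower in iCM than in neoCF, or 4 under quantile normalization, beside 20.1% of all genes. Against LacZ_D14 none of the ventricular genes was lower and 1 was higher. Of 8 atrial genes, 5 were called higher than in neoCF and 1 lower.

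**Figure D2:**
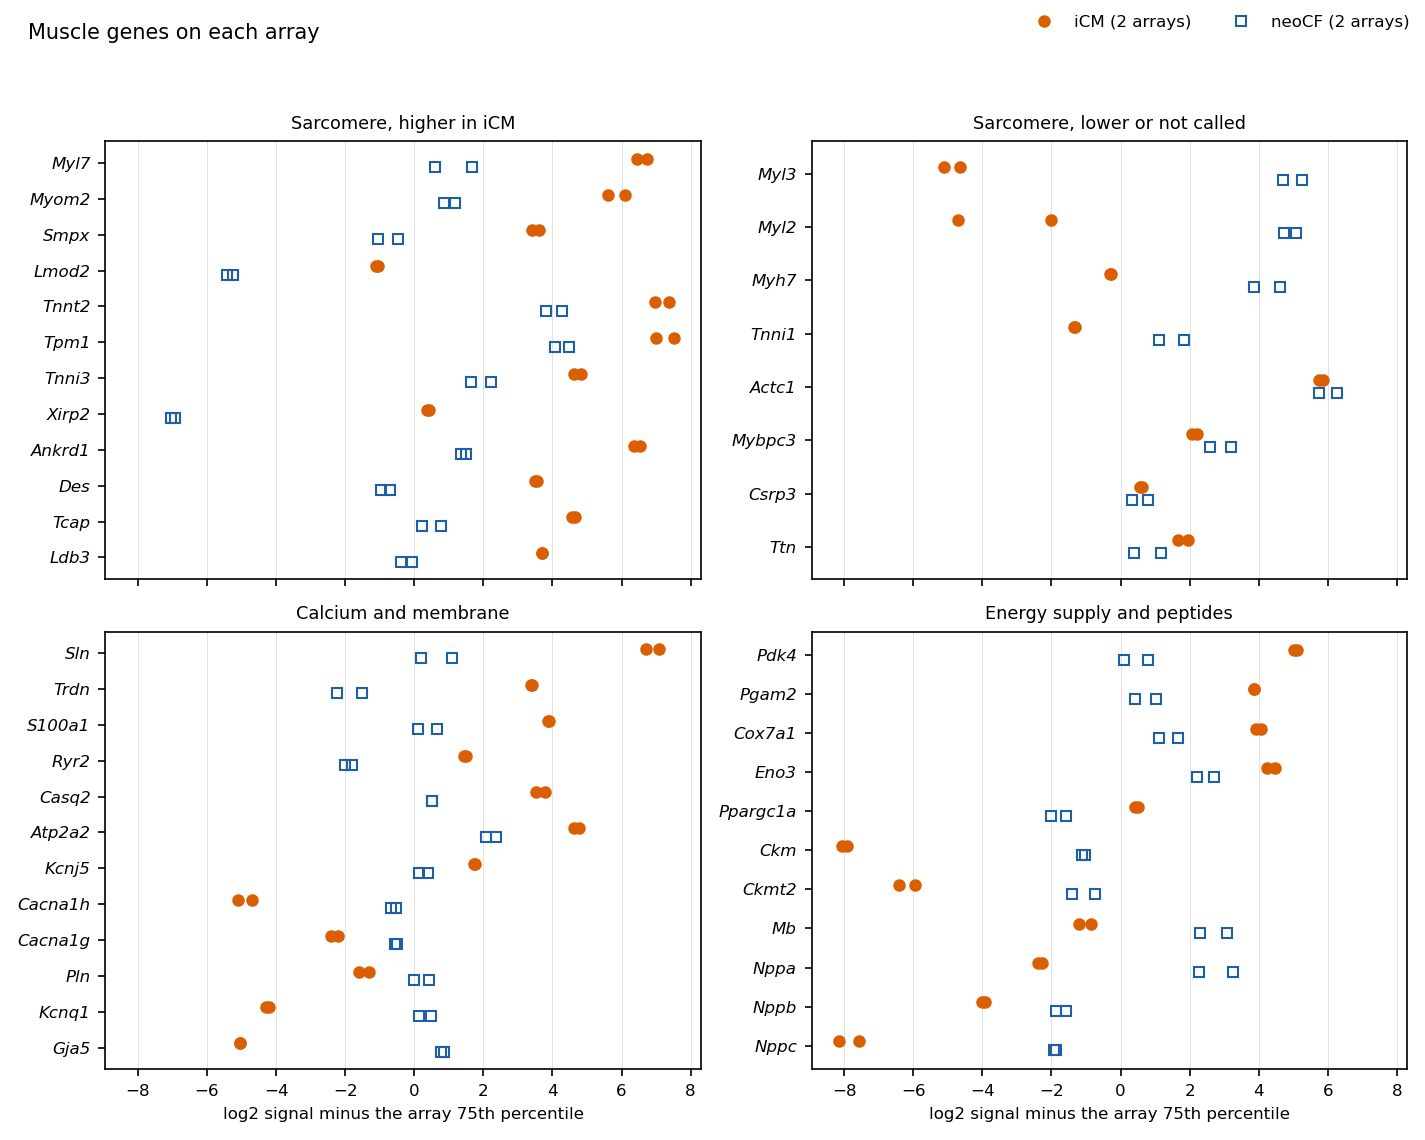
Log2 signal minus the array's 75th percentile (x axis) for muscle genes, with filled circles for the 2 iCM arrays and open squares for the 2 neoCF arrays. The first panel holds genes called higher in iCM, such as Xirp2 and Tcap, and the other panels also show genes lower in iCM, such as Myl3, Kcnq1 and Ckm.

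Promoters of muscle genes are shown for motifs of factors that act in muscle, with 1 gene that rose, 1 not called and 1 that fell among those that carry a CArG box. RefSeq promoters (GRCm38.p6, the 250 bases before the start) were matched by symbol for 49 of the members of the thick filament, thin filament, Z-disc and calcium cycling lists. A MEF2 motif, in its W-containing 10-letter form, was present on either strand in 5 of the 49 promoters (10.2%) and in 0.518% of all 27025 promoters in the table. A CArG box, the 10-letter site read by serum response factor, was present in 7 of 49 (14.3%) and in 1.40% of all. The GATA letters AGATAA or their reverse complement were in 24.5% and 10.3%, and the T-box letters AGGTGT in 6.12% and 12%. The promoter of Xirp2 (chr2:67445752-67446001, plus strand) is printed 5′ to 3′ along the gene with its MEF2 match in capitals. Those of Myl7, the atrial light chain (chr11:5898783-5899032, minus strand), Actc1 (chr2:114052876-114053125, minus strand) and Myl3 (chr9:110763428-110763677, plus strand) have their CArG box in capitals.
Xirp2: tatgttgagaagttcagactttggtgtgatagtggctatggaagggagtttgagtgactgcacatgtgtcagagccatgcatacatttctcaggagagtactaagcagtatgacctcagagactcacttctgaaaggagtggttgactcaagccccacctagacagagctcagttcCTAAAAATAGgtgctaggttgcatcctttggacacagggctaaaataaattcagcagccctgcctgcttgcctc
Myl7: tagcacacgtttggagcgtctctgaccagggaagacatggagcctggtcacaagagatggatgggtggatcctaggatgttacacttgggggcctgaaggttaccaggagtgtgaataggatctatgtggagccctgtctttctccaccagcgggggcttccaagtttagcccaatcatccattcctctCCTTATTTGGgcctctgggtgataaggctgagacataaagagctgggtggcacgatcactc
Actc1: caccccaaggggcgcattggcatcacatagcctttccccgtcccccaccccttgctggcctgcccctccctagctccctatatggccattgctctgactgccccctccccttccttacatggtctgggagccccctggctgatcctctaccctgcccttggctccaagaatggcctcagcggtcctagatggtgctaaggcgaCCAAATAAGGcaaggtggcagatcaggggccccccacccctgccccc
Myl3: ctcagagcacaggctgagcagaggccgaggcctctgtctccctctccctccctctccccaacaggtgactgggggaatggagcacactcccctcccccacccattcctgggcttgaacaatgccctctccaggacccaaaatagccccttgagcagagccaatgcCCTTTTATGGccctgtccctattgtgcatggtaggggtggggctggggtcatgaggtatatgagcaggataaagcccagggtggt
Myl7 was higher in iCM by 5.46 ± 0.46 and Myl3 lower by -9.85 ± 0.54. Of all 7 genes with this box, 5 were called higher (Acta1, Fhl2, Ldb3, Myl7 and Myom1), 1 lower (Myl3) and 1 not called (Actc1). Of the 5 with a MEF2 motif, 2 were called higher (Xirp2 and Myoz2) and none lower. The 4 lists as a whole were called higher for 7 of 14 thick filament, 7 of 11 thin filament, 15 of 21 Z-disc and 9 of 17 calcium cycling genes. Over all genes tested, 16.8% were called higher. A link between these motifs and the changes was not tested. The genes printed were chosen with their values known. A match is a description of the letters and not a bound site.

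Calcium cycling genes were called higher for 9 of 17 and lower for 4, beside 16.8% and 20.1% of all genes. With the percentile over detected probes, 6 were called each way. Sln, sarcolipin, which inhibits the calcium pump in atrial and skeletal muscle, had 7.09 and 6.71 in iCM and 1.08 and 0.18 in neoCF, a difference of 6.27 ± 0.56 (SE, limma, adjusted p = 1.5e-08). Trdn, triadin of the calcium release complex, had 3.40 and 3.37 in iCM and -1.5 and -2.24 in neoCF. Neither gene's groups overlapped. Ryr2, the cardiac calcium release channel, differed by 3.37 ± 0.49, Casq2, the calcium store protein, by 3.14 ± 0.21, and Atp2a2, the pump itself, by 2.49 ± 0.54. Pln, phospholamban, the pump inhibitor of ventricular muscle, had -1.59 and -1.32 in iCM and 0.42 and -0.01 in neoCF and was lower by -1.66 ± 0.48. It was nevertheless higher in iCM than in CF_D0 (3.55 ± 0.48), and at least 9.5-fold higher than in LacZ_D14, where it was not well above background. Without neoCF replicate 1, Pln was at -1.44 from neoCF and not called (limma, adjusted p = 0.054). Of the T-type calcium channel genes, Cacna1g was lower by -1.77 ± 0.18. The probes of Cacna1h differed, with the one used lower by -4.29 ± 0.54 and the other at 0.13.

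Of 14 cardiac ion channel genes, 5 were called higher and 1 lower against CF_D0, where 18.9% and 21.7% of all genes were. Against LacZ_D14, 6 were called higher and 1 lower, where 10.1% and 18.2% of all genes were. Against neoCF, 3 were called higher and 6 lower, beside 16.8% and 20.1% of all genes. Kcnj3 and Kcnj5, the 2 subunits of the acetylcholine-gated potassium channel of atrial muscle, were at least 4.1-fold higher and higher by 1.49 ± 0.39. Kcnj3 was under 2-fold with normexp (0.93). Kcnq1, a repolarizing potassium channel, had -4.21 and -4.30 in iCM and 0.13 and 0.47 in neoCF and was lower by -4.56 ± 0.81. The count of lower channels was 3 under quantile normalization and 2 with the authors' log2 values. At the intercalated disc, Pkp2 and Dsp, parts of the desmosome, were higher by 3.74 ± 0.27 and 2.68 ± 0.36, and Gja1, the main ventricular connexin, by 1.01 ± 0.20, just past 2-fold and under it without iCM replicate 2 (0.97) or neoCF replicate 2 (0.85). Gja5, the connexin of atrium, conduction fibres and arterial endothelium, had -5.05 on both iCM arrays and 0.76 and 0.87 in neoCF, while its other kept probe differed by -1.55. Nppa and Nppb, the natriuretic peptides of heart muscle, were lower by -5.11 ± 0.34 and -2.25 ± 0.60, and Nppc, made by endothelium, was at least 23.4-fold lower.

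Energy genes split. Pdk4, which turns pyruvate away from oxidation, had 5.10 and 5.02 in iCM and 0.10 and 0.79 in neoCF, a difference of 4.62 ± 0.22 (SE, limma, adjusted p = 2.4e-12). Ppargc1a, the coactivator of mitochondrial biogenesis, was higher by 2.26 ± 0.23, and Cox7a1, the muscle form of a cytochrome oxidase subunit, by 2.61 ± 0.31. In contrast, Ckm, muscle creatine kinase, was not well above background in iCM and had -1.12 and -1.04 in neoCF, at least 41.5-fold lower in iCM. Ckmt2, the mitochondrial creatine kinase of muscle, detected on 1 of the iCM arrays, and Mb, myoglobin, were lower by -5.13 ± 0.47 and -3.71 ± 0.39. All 32 respiratory chain genes were tested. Of these, 6 were called higher (Ndufa1, Ndufa2, Ndufa4, Ndufb3, Ndufb9 and Ndufs1) and none lower, beside 16.8% and 20.1% of all genes. Fatty acid oxidation genes were called higher for 8 of 22, with Acadm, Eci1, Acsl1 and Acaa2 between 1.30 and 1.59, and the fatty acid transporter Cd36 was lower by -2.94 ± 0.31. Ndufa2 was under 2-fold without iCM replicate 1 (0.97) or neoCF replicate 2 (0.98). Ndufb3 and Ndufs1 were under 2-fold with quantile normalization (0.99 and 0.92), normexp (0.93 and 0.84) and the authors' log2 values (0.96 and 0.86). With the percentile over detected probes, 2 respiratory chain and 4 fatty acid oxidation genes were called higher than in neoCF. Against CF_D0, 1 respiratory chain gene was called higher and 1 lower, and against LacZ_D14 none was called. Of the fatty acid oxidation genes, 12 were called higher against CF_D0 and 9 against LacZ_D14, with none lower in either.

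Genes of fast skeletal muscle were also present. Of 18 skeletal muscle genes, 9 were called higher and 3 lower in iCM, beside 16.8% and 20.1% of all genes. With the authors' log2 values 1 was lower, and with normexp none. Myl1, a fast-fibre light chain, had 5.69 and 5.56 in iCM and -0.33 and -1.69 in neoCF, a difference of 6.63 ± 0.40 (SE, limma, adjusted p = 7.7e-11). Myh2 and Myh1, fast myosin heavy chains, were higher by 6.62 ± 0.66 and 5.94 ± 0.73, and Actn3, the fast-fibre actinin, by 4.43 ± 0.37. All 4 genes were also called higher against CF_D0 and LacZ_D14. The myogenic factors did not accompany them. Myog, well above background on 1 of the iCM arrays, was not called (0.27 ± 0.31), and Myod1 and the satellite cell factor Pax7 were not well above background in iCM and at least 3.17-fold and 1.56-fold lower. Pax7 was not called without iCM replicate 2 or neoCF replicate 1 (-1.61 in both), and it was at -1.25 with quantile normalization, -0.30 with normexp and -0.61 with the authors' log2 values, again not called. Myod1 was under 2-fold with the authors' log2 values (-0.90) and with normexp (-0.47). Myosin heavy chain genes share long stretches of sequence, so signal from a related transcript cannot be told apart from the named one.

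Adipocyte genes were called higher for 7 of 10 and lower for none, with a median difference of 4.50. Adipoq, the fat cell hormone adiponectin, had 2.21 on both iCM arrays and -5.87 and -6.52 in neoCF, a difference of 8.41 ± 0.84 (SE, limma, adjusted p = 8e-08). Retn, resistin, had 2.67 and 2.37 in iCM and -5.28 and -6.08 in neoCF, and Plin1, the coat of fat droplets, had 0.03 and -0.17 in iCM and -5.66 and -6.05 in neoCF. In each of the 3 genes both iCM arrays lay far above both neoCF arrays. The hormone gene Lep was at least 5.62-fold higher. Against LacZ_D14 all 10 were called higher in iCM, where 10.1% of all genes were called higher, and against CF_D0 all 10 were, where 18.9% of all genes were. Fabp4, a fatty acid carrier of fat cells and of capillary endothelium, was not called against neoCF (-0.87 ± 0.93) but was higher than in LacZ_D14 by 4.28 ± 0.93. Pparg, the master factor of fat cells, was not called against neoCF (0.22 ± 0.13).

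Complement genes were called higher than in neoCF for 9 of 15 and lower for none, beside 16.8% and 20.1% of all genes. Cfd, the complement factor D that fat cells secrete and a member of both lists, had 3.42 and 3.44 in iCM and -6.02 and -7.04 in neoCF, a difference of 9.96 ± 2.05. It was well above background on 1 of the neoCF arrays, and the call had an adjusted p of 0.00038 (limma). C4b had 4.39 and 4.18 in iCM and 1.57 and 0.58 in neoCF, and C1s1, the classical pathway protease, had 4.59 and 4.66 in iCM and 2.25 and 1.20 in neoCF. Without neoCF replicate 2, C1s1 was higher by 2.37 and not called (limma, adjusted p = 0.077). Serping1, the inhibitor of that protease, was higher by 2.47 ± 0.44, and C6, of the membrane attack complex, by 3.30 ± 0.46. C3, the central component, was not called (0.39 ± 0.68). Against LacZ_D14, 8 of the 15 were called higher and 3 lower, where 10.1% and 18.2% of all genes were. Against CF_D0, 12 were called higher and none lower, where 18.9% and 21.7% of all genes were.

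**Figure D3:**
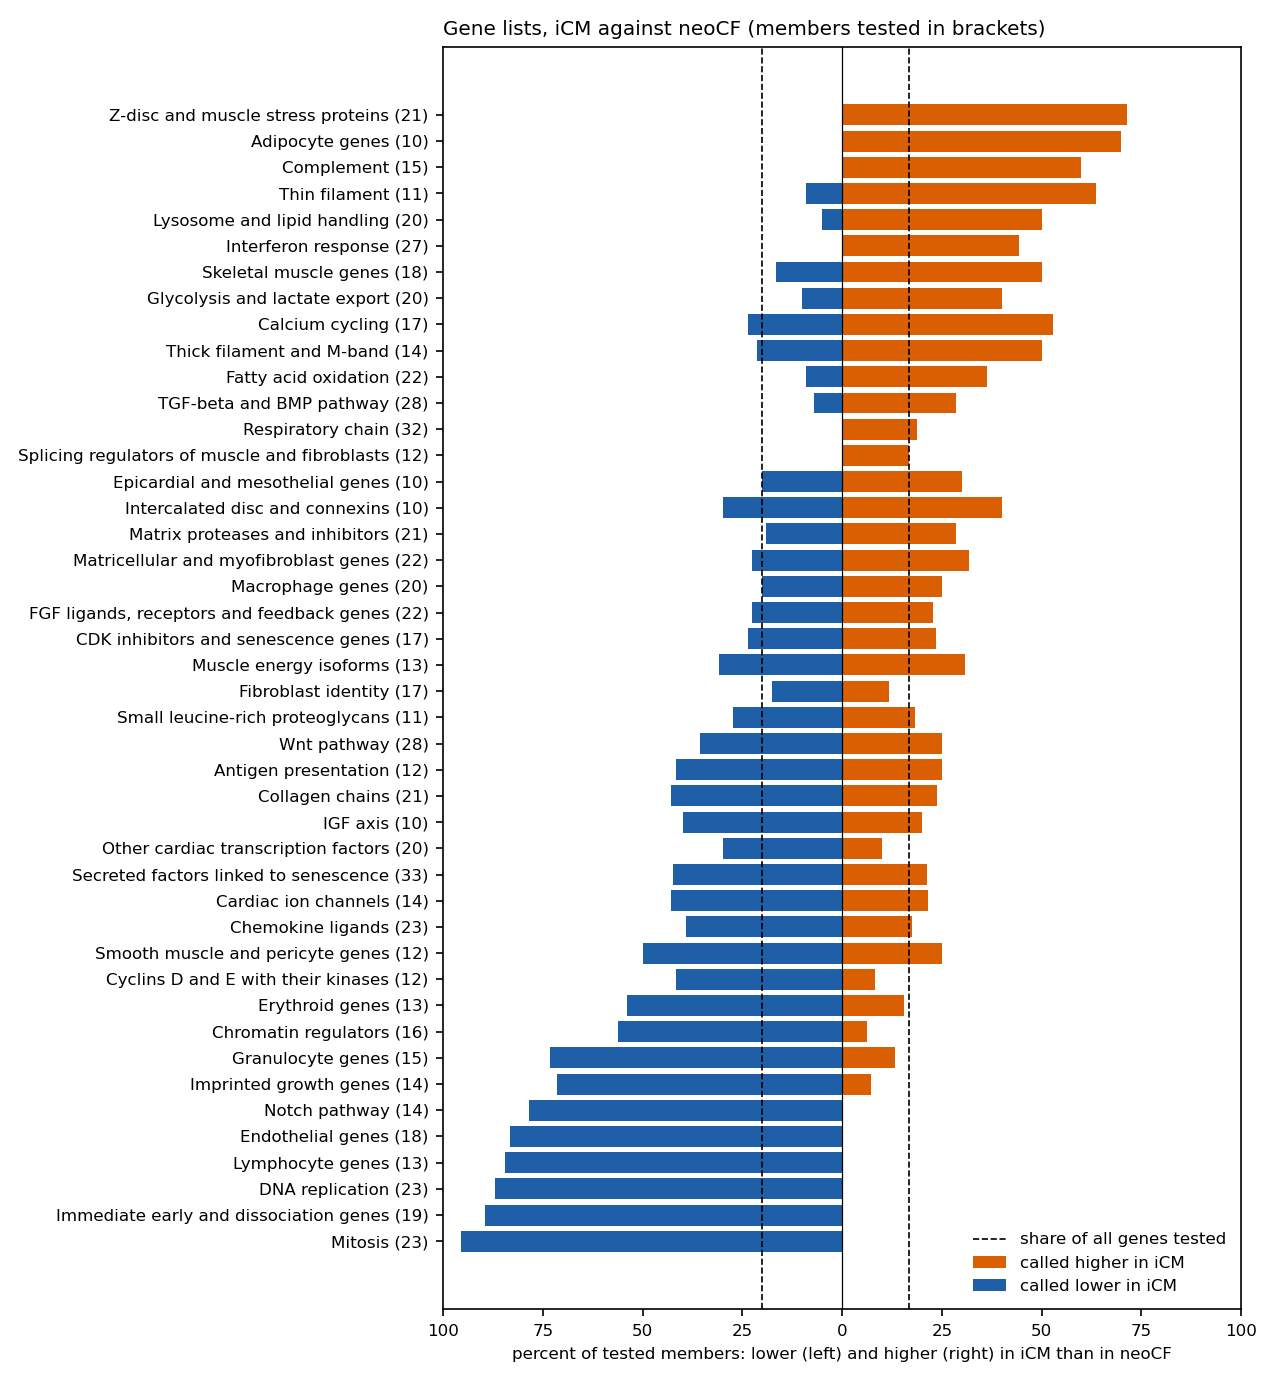
Percent of tested members of each gene list called higher (right) or lower (left) in iCM than in neoCF, with dashed lines at the shares of all genes tested (16.8% higher, 20.1% lower). Z-disc, adipocyte and complement lists have no lower member, and mitosis, DNA replication, endothelial and Notch lists have no higher one.

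Among called genes with an established symbol that were well above background on both iCM arrays, the 12 largest rises included Cyp2f2, Mmp3, Cfd, Cdkn2a, Mlana, Sucnr1, Adipoq, Retn, Grem1, Cxcl13 and Col22a1. Cyp2f2, a cytochrome P450 known from lung and liver, had 1.89 and 2.10 in iCM and was not well above background in neoCF, at least 459-fold higher. Its iCM arrays lay far above its neoCF arrays. Mlana, a melanosome protein, was higher by 8.68 ± 0.32, Sucnr1, the succinate receptor, detected on 1 of the neoCF arrays, by 8.57 ± 1.26, and Col22a1, a collagen of the muscle-tendon junction, by 8.00 ± 0.41. Cxcl13, the B cell attracting chemokine, had 4.67 and 4.59 in iCM and -2.03 and -4.83 in neoCF. Its 2 neoCF arrays were unlike each other but both below iCM.

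Genes of cell division were lower almost throughout. Of 23 mitosis genes 22 were called lower, and of 23 DNA replication genes 20, with none higher in either list. Mki67, the proliferation marker, had 0.02 and 0.17 in iCM and 4.70 and 4.60 in neoCF, a difference of -4.56 ± 1.06 (SE, limma, adjusted p = 0.0012). Aurkb, a kinase of chromosome segregation, was not well above background in iCM and at least 25.8-fold lower. The neoCF arrays were high and the iCM arrays low for both. Ccnd2, a cyclin of early G1, went the other way, with 5.21 and 4.88 in iCM and 3.25 and 3.06 in neoCF, higher by 1.89 ± 0.15, and Ccnd1 and Ccnd3 were not called. The repressors E2f7 and E2f8, made during replication, were lower by -4.61 ± 0.52 and -3.72 ± 0.34, but the other kept probe of E2f7 was at -0.56.

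The promoters of 3 such genes are shown since a CCAAT box occurred in most promoters of both lists. A CCAAT box (the letters CCAAT or, on the other strand, ATTGG) was present in 17 of 19 mitosis promoters matched (89.5%) and 13 of 19 replication promoters (68.4%), against 34.5% of all. A CHR element (TTTGAA or TTCAAA), known from cell cycle genes, was present in 31.6%, 21.1% and 16.3%. The promoters of Cdc20, an activator of the anaphase complex (chr4:118437344-118437593, minus strand), Cdk1, the mitotic kinase (chr10:69352913-69353162, minus strand), and Top2a, the topoisomerase of replication and mitosis (chr11:99024190-99024439, minus strand), have CCAAT boxes and CHR elements in capitals, which do not overlap.
Cdc20: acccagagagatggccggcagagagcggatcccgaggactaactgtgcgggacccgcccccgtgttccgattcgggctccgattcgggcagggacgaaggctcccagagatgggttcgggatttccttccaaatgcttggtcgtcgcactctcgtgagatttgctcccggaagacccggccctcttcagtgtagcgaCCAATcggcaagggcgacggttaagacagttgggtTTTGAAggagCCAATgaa
Cdk1: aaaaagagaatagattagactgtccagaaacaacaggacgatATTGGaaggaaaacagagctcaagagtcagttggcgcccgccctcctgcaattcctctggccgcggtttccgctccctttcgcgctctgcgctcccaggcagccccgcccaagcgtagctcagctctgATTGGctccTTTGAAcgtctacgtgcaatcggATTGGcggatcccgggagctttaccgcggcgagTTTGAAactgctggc
Top2a: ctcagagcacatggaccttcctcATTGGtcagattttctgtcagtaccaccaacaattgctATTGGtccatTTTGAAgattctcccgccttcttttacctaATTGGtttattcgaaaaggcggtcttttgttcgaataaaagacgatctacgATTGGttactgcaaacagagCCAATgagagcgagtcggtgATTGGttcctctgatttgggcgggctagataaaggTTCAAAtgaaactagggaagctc
In iCM, Cdc20 was lower by -3.77 ± 0.50, Cdk1 by -3.28 ± 0.67 and Top2a by -4.21 ± 0.90. The share of a motif describes these windows and says nothing of which factor was bound.

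Of 17 inhibitors of cyclin-dependent kinases and senescence genes, 4 were called higher and 4 lower, beside 16.8% and 20.1% of all genes. Cdkn2a, which encodes p16 and p19ARF, had 5.35 and 5.02 in iCM and -4.14 and -4.25 in neoCF, and Cdkn2b, p15, had 3.74 and 3.53 in iCM and -2.97 and -2.70 in neoCF. Both iCM arrays lay above both neoCF arrays by 9.38 ± 0.69 and 6.47 ± 0.46. Cdkn1a, p21, was higher by 3.35 ± 0.50. Against LacZ_D14 none of these 3 was called, with differences of 0.07 ± 0.69, -1.10 ± 0.46 and 0.07 ± 0.50. Cdkn1c, p57, was lower than in neoCF by -1.48 ± 0.31 and higher than in LacZ_D14 by 5.39 ± 0.31. Cdkn2b was called lower than in LacZ_D14 with only these groups in the fit (limma, adjusted p = 0.025). Lmnb1, a nuclear lamin, was lower by -4.65 ± 0.40. Secreted factors linked to senescence went both ways, with 7 of 33 called higher and 14 lower, beside 16.8% and 20.1% of all genes. Mmp3, stromelysin, and Igfbp2 were higher by 10.50 ± 1.63 and 5.92 ± 0.64, whereas Il6, Cxcl1 and Cxcl2 were lower by -3.23 ± 0.64, -5.57 ± 0.37 and -8.51 ± 0.35 (Cxcl2 was detected on 1 of the iCM arrays), and Il1b was at least 511-fold lower.

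**Figure D4:**
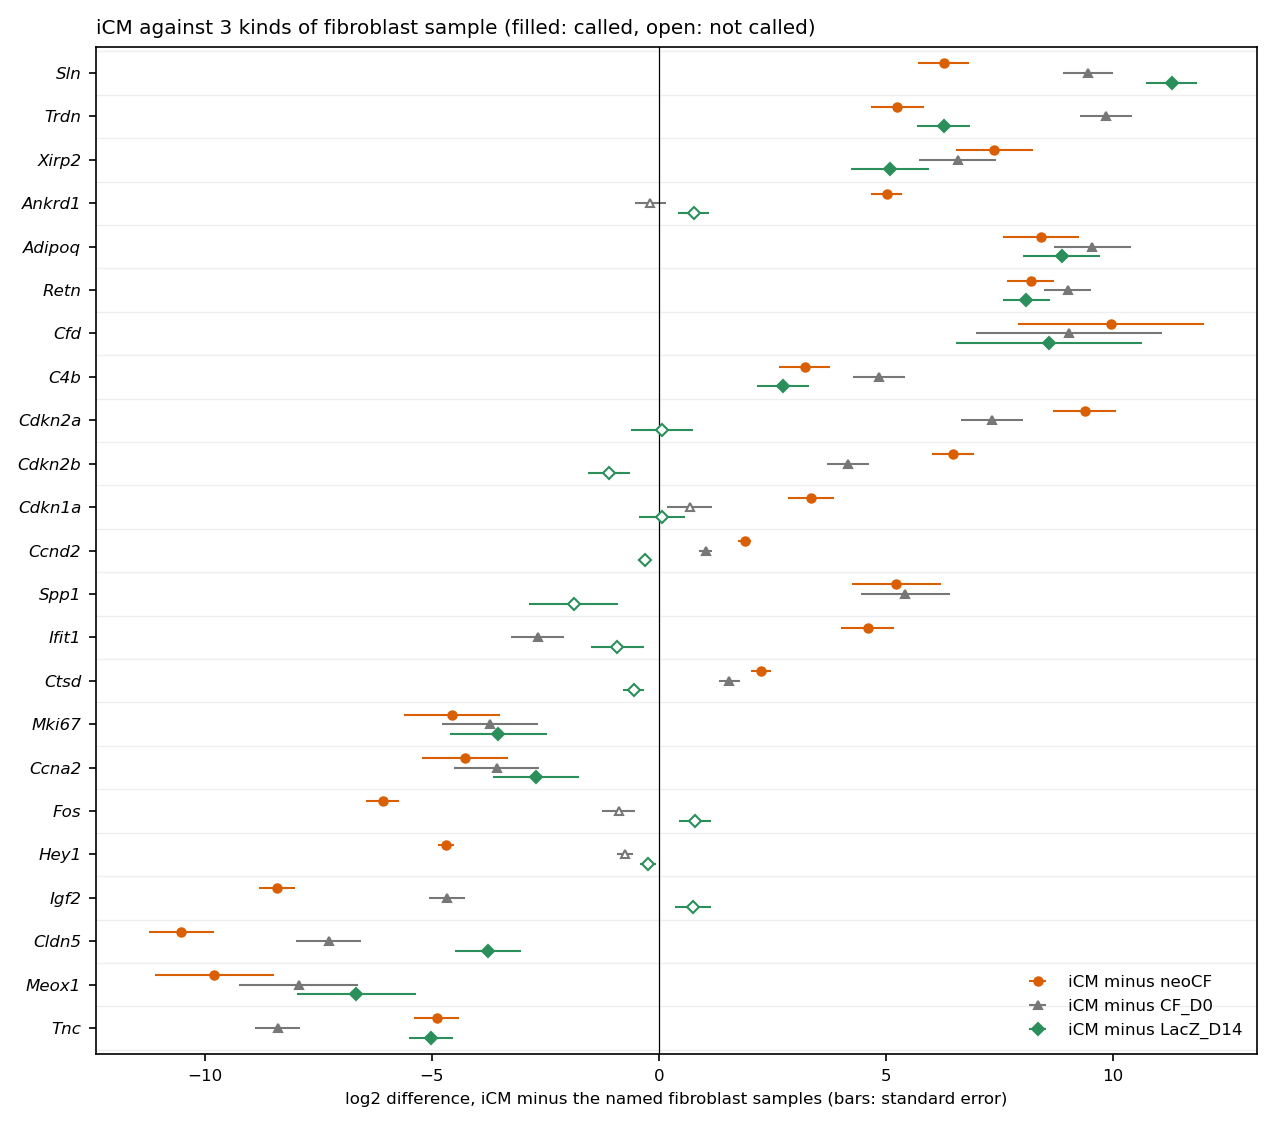
Log2 differences with standard errors of iCM from neoCF (circles), CF_D0 (triangles) and LacZ_D14 (diamonds), which share the iCM arrays, with filled symbols for called differences. Sln, Trdn, Adipoq and Meox1 are called against all 3, Cdkn2a and Igf2 are near 0 against LacZ_D14, and Ifit1 is higher than neoCF and lower than CF_D0. For genes dim in a fibroblast group, the plotted value is the fitted difference and no bound.

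Several differences from neoCF were not called or turned round against the other fibroblast samples, which are compared with the same iCM arrays. Of 27 interferon response genes, 12 were called higher and none lower in iCM than in neoCF, or 8 and 1 without neoCF replicate 2. Against CF_D0, 23 were called lower and none higher, where 21.7% of all genes were called lower, and against LacZ_D14 3 were lower, where 18.2% of all genes were. Ifit1, an antiviral sensor of foreign RNA, had 1.69 and 1.80 in iCM and -2.29 and -3.42 in neoCF, higher by 4.60 ± 0.58 than in neoCF and lower by -2.67 ± 0.58 than in CF_D0. Lysosome and lipid handling genes were called higher for 10 of 20, and for 5 with the percentile over detected probes or when tested against a 2-fold change. Among them was Ctsd, a lysosomal protease, higher by 2.25 ± 0.23. Of these 20, 7 were called higher against CF_D0 and none against LacZ_D14. Of 19 immediate early genes, whose transcripts rise within minutes of a stimulus, and genes of cell dissociation, 17 were lower. Fos had -0.11 and -0.07 in iCM and 5.82 and 6.15 in neoCF, and Hspa1a, a heat shock chaperone, had -2.29 and -2.15 in iCM and 5.97 and 6.67 in neoCF. Against CF_D0 10 of the 19 were lower, and against LacZ_D14 1 was.

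Matrix genes moved in both directions, 5 of 21 collagen chains higher and 9 lower, beside 16.8% and 20.1% of all genes. Col8a1, a short-chain collagen, had 4.04 and 3.83 in iCM and -1.21 and -0.90 in neoCF and was higher by 4.99 ± 0.61. Col10a1, known from hypertrophic cartilage, was at least 23.4-fold higher. Col15a1, a collagen of vessel and muscle basement membrane, had -5.19 and -4.53 in iCM and 0.26 and 0.76 in neoCF, lower by -5.37 ± 0.51. Of the other chains that fell, Col1a1, Col5a3, Col6a2, Col14a1 and Col18a1 were lower by between -1.21 and -3.40. Col14a1 was not called without iCM replicate 2 (-2.85) or neoCF replicate 2 (-2.82). Spp1, osteopontin, and Lox, which crosslinks collagen, were higher by 5.23 ± 0.98 and 3.37 ± 0.36, and Tnc, tenascin C, detected on 1 of the iCM arrays, was lower by -4.89 ± 0.49. Of 22 matricellular and myofibroblast genes, 7 were called higher and 5 lower, beside 16.8% and 20.1% of all genes. Both counts were smaller without neoCF replicate 2.

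Of 17 fibroblast identity genes, 2 were called higher, 3 lower and 12 not called, beside 16.8% higher and 20.1% lower of all genes. S100a4 had 7.04 and 6.61 in iCM and 2.83 and 2.80 in neoCF. Meox1, a homeobox factor of activated fibroblasts, had -6.46 and -6.44 in iCM and 3.24 and 3.44 in neoCF, lower by -9.79 ± 1.31 (SE, limma, adjusted p = 3.3e-06). It was well above background on 1 of the iCM arrays. Its fall was also called against CF_D0 (-7.93 ± 1.31) and LacZ_D14 (-6.66 ± 1.31). Gli1, the target and effector of hedgehog signalling, and Pi16, of perivascular fibroblasts, were lower by -6.91 ± 0.91 and -5.50 ± 0.19. With only the 2 groups in the fit, or with array weights, 5 of the 17 were called higher and 4 lower, and the same counts came without the 2 iPSC2-CM_D29 arrays, an alternative added after the data were seen. Without neoCF replicate 2, 1 was called higher.

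Of 28 genes of the TGF-beta and BMP pathway, 8 were called higher and 2 lower in iCM, beside 16.8% and 20.1% of all genes. With the percentile over detected probes, 5 were called each way. Grem1, a secreted BMP antagonist, had 1.73 and 1.21 in iCM and -6.59 and -6.72 in neoCF, a difference of 8.12 ± 0.64, and Fst, which binds activins, was higher by 4.67 ± 0.93. Of 22 FGF ligands, receptors and feedback genes, 5 were called higher and 5 lower, near the shares of all genes. The ligands Fgf7, Fgf10, Fgf2, Fgf9 and Fgf18 were higher by between 1.70 and 4.33. The feedback inhibitors Spry2 and Spry4, 2 of the 5 lower genes, differed by -1.38 ± 0.16 and -1.41 ± 0.25. Spry2 was under 2-fold with normexp (-0.88) and with the authors' log2 values (-0.97). The labels give bFGF and FGF10 in the medium for contractile iCM, and the part of the medium in these values was not tested. In the Wnt pathway, 7 of 28 were called higher and 10 lower, beside 16.8% and 20.1% of all genes. The higher ones included the agonists Rspo1 and Rspo3, and the lower ones the nuclear partners Lef1 and Tcf7. Without neoCF replicate 2, 4 were higher. Rspo1 was not called without neoCF replicate 2 (1.43) or iCM replicate 1 (2.08). Notch genes were lower for 11 of 14 and higher for none. The target genes Hey1 and Heyl had -1.49 and -1.67 and -1.84 and -1.72 in iCM, against 2.78 and 3.43 and 2.63 and 2.85 in neoCF. The ligand Dll4 and the target Nrarp were at least 39-fold and 111-fold lower in iCM. Endothelial genes were lower for 15 of 18. Of 12 smooth muscle and pericyte genes, 6 were lower (Rgs5, Kcnj8, Abcc9, Notch3, Smtn and Cspg4) and 3 higher (Lmod1, Tagln and Acta2). The part of these cells in the Notch result was not tested. Against LacZ_D14, 4 of the 14 Notch genes were lower and none higher, where 18.2% of all genes were lower. Against CF_D0, 2 of them were lower and 2 higher, where 21.7% and 18.9% of all genes were.

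Markers of other cells of the heart differed between iCM and neoCF too, and their part in the results above was not tested. Summed over 5 endothelial markers, signal was 5.12 and 4.93 times the 75th percentile signal in iCM and 38.9 and 42.0 in neoCF, with 4 of 5 called lower. Cldn5, a tight junction protein of endothelium detected on 1 of the iCM arrays, had -5.88 and -6.08 in iCM and 4.43 and 4.63 in neoCF. Kdr, the VEGF receptor, was the marker not called (-0.34 ± 0.24), although the mean of its kept probes was lower by -1.78 and called. The 4 granulocyte markers summed to 0.308 and 0.264 in iCM and 86.1 and 58.2 in neoCF, and S100a9 and Ngp were not well above background in iCM. Macrophage markers summed to 44.7 and 43.1 in iCM and 65.9 and 44.5 in neoCF. Beside 16.8% and 20.1% of all genes, 5 of 20 macrophage genes were called higher and 4 lower. The higher ones were led by Gpnmb (5.25 ± 0.79), a glycoprotein of lysosome-rich macrophages, and the lower ones by Cx3cr1 (-4.98 ± 0.37), the fractalkine receptor. Without iCM replicate 2 or without neoCF replicate 2, 3 were called higher. The 3 adipocyte markers summed to 6.19 and 5.97 in iCM and 0.0432 and 0.0423 in neoCF.

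Globin transcripts were lower in iCM, while the heme enzyme of red cells was higher. Hbb-bt was at least 4018-fold lower and Hba-a1 was lower by -10.73 ± 0.23, and these globins have near-identical copies that the probes may share. Alas2, the erythroid form of the first enzyme of heme synthesis, had 5.20 and 5.34 in iCM and 0.10 and -0.18 in neoCF, a difference of 5.31 ± 0.78 (SE, limma, adjusted p = 1.1e-05). It was at least 1837-fold higher than in CF_D0, where it was not well above background, and exceeded LacZ_D14 by 8.46 ± 0.78. Gata1, the erythroid factor, was at least 3.47-fold lower in iCM, but under 2-fold with normexp (-0.76). The 4 erythroid markers summed to 36.8 and 40.6 in iCM, nearly all of it Alas2, and 118 and 102 in neoCF, nearly all of it globin. The largest falls over all genes also held the granulocyte genes S100a9 and Stfa1, Il1b, the endothelial genes Sox17 and Btnl9, and Tcf15, each at least 366-fold lower in iCM. Stfa1 belongs to a cluster of near-identical stefin genes, so its value is uncertain.

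Growth genes that are expressed from 1 parental allele were lower for 10 of 14 and higher for 1, a rise not called under the other scalings or without iCM replicate 2. Igf2, the fetal growth factor, had -5.42 and -5.49 in iCM and 2.94 and 2.95 in neoCF, a difference of -8.40 ± 0.40, and Dlk1 and Mest were lower by -5.20 ± 0.60 and -4.64 ± 0.51. Against LacZ_D14 none of these 3 was lower, and Mest was higher by 2.03 ± 0.51. Among chromatin regulators, 9 of 16 were called lower and 1 higher. Uhrf1, which brings DNA methyltransferase to new DNA, and Ezh2, the methyltransferase of Polycomb, were lower by -4.48 ± 0.93 and -2.57 ± 0.31. Cbx7, a Polycomb subunit, was higher by 1.42 ± 0.32, but under 2-fold with normexp (0.88). The muscle splicing factors Rbm24 and Rbm20 were higher by 2.19 ± 0.34 and 1.42 ± 0.43. No other member of that list of 12 was called, whereas 16.8% of all genes were called higher and 20.1% lower. The percentile over detected probes put 2 members lower, and 1 was lower under quantile normalization, normexp, the authors' log2 values, the mean of probes, array weights or a fit of the 2 groups. Rbm20 was not called without iCM replicate 1 (1.20) or neoCF replicate 2 (1.03).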

How the data were processed

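The labels describe 34 Agilent 1-colour mouse arrays in 17 groups of 2. The deposited scanner files hold processed intensity per spot, which per the file headers Feature Extraction (10.7.3.1) had background-subtracted, and the authors' deposited log2 values served as an alternative. The submitters' processing notes name limma. The log2 intensity minus each array's 75th percentile was used, without control spots and outlier spots, with spots of a probe averaged. Of 55681 probes, RefSeq named 26056 through an accession, 3200 through a current symbol and 930 through an older one, while 25495 stayed unnamed. A probe was kept where some group had it well above background in both replicates, and where a gene had several the one with the highest mean level stood for it.

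All 34 arrays entered 1 limma fit (limma 3.58.1, R 4.3.3; lmFit and eBayes, 17 residual degrees of freedom, Benjamini-Hochberg adjustment over 19408 genes). Where a group was well above background on neither array, its fold is a lower bound: the mean of the higher group against the mean of the higher of each dim array's lowest well-above-background signal and the probe's own. In simulated data for iCM and neoCF, 100 genes were changed by 1.5 and 100 by 3 on the log2 scale. Of these, 73% and 89% were recovered, with 5 false calls. All other genes were left without group differences, whereas far more genes differed in the data. These rates therefore do not carry over to the calls made here. The number of arrays limits the precision. Replicate numbers did not pair arrays (correlation of deviations -0.059 for neoCF, -0.044 for CF_D0 and 0.071 for LacZ_D14).

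The comparisons, the 52 gene lists and their members were chosen with earlier results of these data known. Any list member could be named, with preference for the largest called changes of each list, the delivered factors always, and the 12 largest called rises and falls over all genes with an established symbol. Some genes that this rule would name are not reported here. Of 803 list members 793 were tested. Promoter sequences and gene names came from RefSeq tables. Python 3.11.15 with pandas 2.3.3, numpy 2.4.6 and matplotlib 3.10.9 was used. Alternatives were other normalizations, filters, probe rules, fits and left-out arrays.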

Additional observations from a re-analysis of the deposited data

How the results depend on the processing

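No named gene changed direction with a call under any alternative run. Of 179 genes named for iCM against neoCF, 139 kept their side of the threshold under every alternative. Against neoCF, tested against a 2-fold change (treat), 1491 genes were higher and 1925 lower, and normexp with quantile normalization called 2489 lower. Against CF_D0, treat called 2199 higher and 1937 lower and normexp 2653 lower. Against LacZ_D14, treat called 845 higher and 1052 lower, and the lower count was 2060 with quantile normalization, 1593 with normexp, 1874 with the authors' log2 values and 5882 with no filter on dim probes. Leaving out 1 array at a time gave 2902 to 3155 higher and 3476 to 3556 lower against neoCF, 3387 to 3471 and 3887 to 3914 against CF_D0, and 1636 to 2095 and 2365 to 3819 against LacZ_D14, whose replicate 2 was the dimmest array. An arm left with 1 array was assumed to vary like the other groups. With the replicate number as a block, which the arrays do not bear out as a pairing, 3267 genes were higher and 3917 lower against neoCF, and no named call changed. Leaving out the iPSC2-CM_D29 arrays, chosen after the data were seen, gave 3456 and 4137. Among 41 named genes with several kept probes, those of Cacna1h differed in sign (-4.29 and 0.13). Among the lists, treat called higher 4 of 27 interferon, 5 of 15 complement, 2 of 22 fatty acid oxidation and 1 of 32 respiratory chain genes. The cause of these shifts was not tested. Values near background are limited by signal. All values rest on 2 arrays a group, and iCM lay on a different slide from the fibroblast groups.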
